A study of Mus musculus with 27 samples.

Results

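The genes described here encode the proteasome, its immunoproteasome subunits, its activators and the chaperones that assemble it. They were chosen by name: symbols of the Psma to Psmg families, or Psme1 to Psme4, without pseudogene names and with a mean of at least 10 CPM (CPM is a gene's share of the scaled library total, in parts-per-million) over all libraries. The rule took 48 of 50 matching symbols, among 47729 genes listed. Those left out were Psma8, at 1.60 CPM, and Psmb11, at 0.03 CPM, which encode the testis and thymus forms of proteasome subunits. Just inside the threshold lay Psmc3ip, at 12.2 CPM, and Psmg1, at 24.1 CPM. The rule also took 2 genes that are not counted as subunits here. These are Psmc3ip, a recombination protein, and Psme2b, a retrocopy of Psme2 with nearly the same coding sequence. All 48 passed the count filter, and 14059 genes were tested in all.

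The proteasome degrades ubiquitin-tagged proteins and supplies most peptides for MHC class I. Its 20S core holds rings of alpha and beta subunits, and the 19S cap, with its ATPases, recognises and unfolds substrates. Interferon gamma induces alternative catalytic subunits, Psmb8, Psmb9 and Psmb10, which replace Psmb5, Psmb6 and Psmb7 in newly built cores and so make immunoproteasomes. It also induces Psme1 and Psme2, which form the PA28 activator that caps the core in place of the 19S particle. Lymphocytes carry immunoproteasome without infection, and T cells increase proteasome activity when they divide.

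Counts came from RNA-seq of 27 libraries, each from CD8+ T cells sorted out of MC38 tumours, which grow from a mouse colon carcinoma line. The gates used CD45, CD3 and CD8, then PD-1, a receptor that restrains T cells after activation, and KLRG1, found on late effector cells. Mice received Iso, an isotype control, or Tri, taken here as the combined immunotherapy that the series text calls TCT, whose agents were not given in the sources used here. The study asked which expression profiles mark the CD8+ populations of treated tumours. The 6 groups were Iso PD1-KLRG1- and Iso PD1-KLRG1+, with 4 libraries each, and Tri PD1-KLRG1- (5 libraries), Tri PD1-KLRG1+ (4), Tri PD1+KLRG1- (5) and Tri PD1+KLRG1+ (5). All groups share the tumour line and the CD8 gate, and the mouse strain, age and genotype are not given. PD1+ cells were available here under Tri alone, so the treatments could be compared in PD1- cells only. The labels do not say that the libraries of a group came from separate mice, so p-values measure the spread between these libraries.

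A library held between 6991521 and 26284630 counts, except Iso PD1-KLRG1+ replicate 3, which held 93198. The Iso PD1-KLRG1+ libraries lacked a count for 9.94 to 29.5% of 6969 well-expressed genes, and Iso PD1-KLRG1+ replicate 3 lacked one for 8 of the 48 proteasome genes. All 8 CD8 T cell markers were detected in every group, at a summed 7911 to 14072 CPM. Of 15 myeloid markers, 13 to 15 were detected by group, and their summed level averaged 2041 to 3327 CPM in the Iso groups against 365 to 772 CPM in the Tri groups. Tumour and stroma markers were highest in Iso PD1-KLRG1+ replicate 4, at 3572 CPM, where myeloid markers reached 10631 CPM. Without that library the myeloid mean of its group was 893 CPM, and without Iso PD1-KLRG1- replicate 4 that of the other Iso group was 1280.3 CPM. Descriptions of 9 libraries (replicate 4 of each group and replicate 5 of Tri) end in an RNA number, and this name series was a term in the main fit. In bulk libraries, fewer cells of a type and less RNA per cell cannot be told apart.

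Psmb8 was the most abundant of the 48 transcripts. Its mean over the libraries was 1535 CPM, followed by Psme2 at 631 CPM, Psme1 at 553 CPM and Psmb9 at 519 CPM. Per kilobase of the principal transcript the order was Psmb8 at 943 CPM per kb, Psme2 at 656, Psmb3, a structural beta subunit, at 565, Psme1 at 498 and Psmb9 at 384. The constitutive catalytic subunits lay lower per length, with Psmb6 at 348 CPM per kb, Psmb5 at 222 and Psmb7 at 90.1, and Psmb10 reached 244. Together the 48 genes took 8060 to 14407 CPM of a library, or 0.806 to 1.44% of the scaled library total. The 17 genes of the 20S core (7 alpha, 4 structural beta and 6 catalytic) summed to 4272 to 8688 CPM per library, and the 17 subunits of the 19S cap to 2568 to 3744 CPM.

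The sequences upstream of the 3 inducible catalytic genes are given because Psmb8 and Psmb9 lie near each other in the MHC region of chromosome 17, while Psmb10 lies on chromosome 8. Each line holds the 250 bases before the RefSeq start site, in GRCm38.p6 and read along the gene's strand. The windows are chr17:34197945-34198194 (plus strand) for Psmb8, chr17:34187331-34187580 (minus) for Psmb9 and chr8:105938393-105938642 (minus) for Psmb10. In the GENCODE M21 annotation Psmb8 starts at 34197721 and Psmb9 at 34187764, so these windows lie within the annotated genes. Psmb10 starts there at 105938444, inside its window. Capitals mark a match to TTCNNNGAA, the gamma-activated sequence found in promoters of interferon-responsive genes.
Psmb8: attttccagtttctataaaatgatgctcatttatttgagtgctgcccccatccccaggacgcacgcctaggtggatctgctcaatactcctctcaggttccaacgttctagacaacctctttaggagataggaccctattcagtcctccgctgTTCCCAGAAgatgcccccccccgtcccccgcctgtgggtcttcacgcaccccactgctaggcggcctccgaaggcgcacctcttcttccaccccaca
Psmb9: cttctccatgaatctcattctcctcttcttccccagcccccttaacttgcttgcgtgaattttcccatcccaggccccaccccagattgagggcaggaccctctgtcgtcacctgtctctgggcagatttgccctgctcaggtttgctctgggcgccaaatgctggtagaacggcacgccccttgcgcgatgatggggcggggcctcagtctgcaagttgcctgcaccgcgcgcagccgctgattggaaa
Psmb10: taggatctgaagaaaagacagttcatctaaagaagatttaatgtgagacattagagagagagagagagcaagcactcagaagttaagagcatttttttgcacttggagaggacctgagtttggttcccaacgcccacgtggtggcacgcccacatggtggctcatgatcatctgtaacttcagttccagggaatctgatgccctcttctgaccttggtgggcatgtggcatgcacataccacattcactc

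The 3 motifs searched, on both strands, were TTCNNNGAA, the core of the interferon-stimulated response element (ISRE) and the core of the antioxidant response element, which Nrf factors bind. In the 250 upstream bases TTCNNNGAA was held by 7.02% of all 32851 RefSeq promoter windows and, of the 41 members with a window, by Psmb8 and Psmg1. The ISRE core was held by 2.98% of all windows and by Psmb3, Psmd4 and Psmd9, and the antioxidant core by 2.47% and by Psmd12. With the 50 bases after the start site included, Psmd2 also held TTCNNNGAA (8.30% of all windows). Psme1 and Psmg4 then also held the ISRE core (3.44%), and Psme4 the antioxidant core (3.04%). The start sites of Psmb9 and Tap1, which encodes a peptide transporter subunit, lie 226 bases apart on opposite strands, so the window printed for Psmb9 is shared with Tap1. A match is a description of these letters, and no binding was measured.

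Psme2 is reported with a limit, because Psme2b copies its coding sequence. The coding sequences, both 717 bases long, differ at 5 positions (99.3% identity), and 69.5% of 50-base windows are the same in both. The stretch of bases 484 to 543, which holds 3 of the differences, shows how little separates them, with the differing bases in capitals.
Psme2: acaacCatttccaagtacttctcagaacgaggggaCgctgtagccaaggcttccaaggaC
Psme2b: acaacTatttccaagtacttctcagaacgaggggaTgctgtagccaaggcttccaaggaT
Counts assigned to Psme2b made up 8.99 to 12.9% of both genes together by group mean, and the authors' counting could have split reads between them.

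The levels of the 8 genes at the centre of the comparison varied within each group. Psmb10, the inducible form of the Psmb7 position, stood at 414, 494, 489 and 320.0 CPM in Iso PD1-KLRG1- and at 438, 237, 396 and 261 CPM in Iso PD1-KLRG1+. Under Tri it stood at 445, 389.8, 407, 312 and 219.8 CPM in PD1-KLRG1- cells and at 375, 480.2, 402 and 279 CPM in PD1-KLRG1+ cells. The PD1+ groups were lower, at 303, 196, 259, 164 and 186 CPM in PD1+KLRG1- cells and 246, 245, 249.9, 224 and 192 CPM in PD1+KLRG1+ cells. Of the 10 PD1+ libraries, 9 lay below 260 CPM, and 7 of the 9 Tri PD1- libraries lay above 300 CPM.

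**Figure D1:**
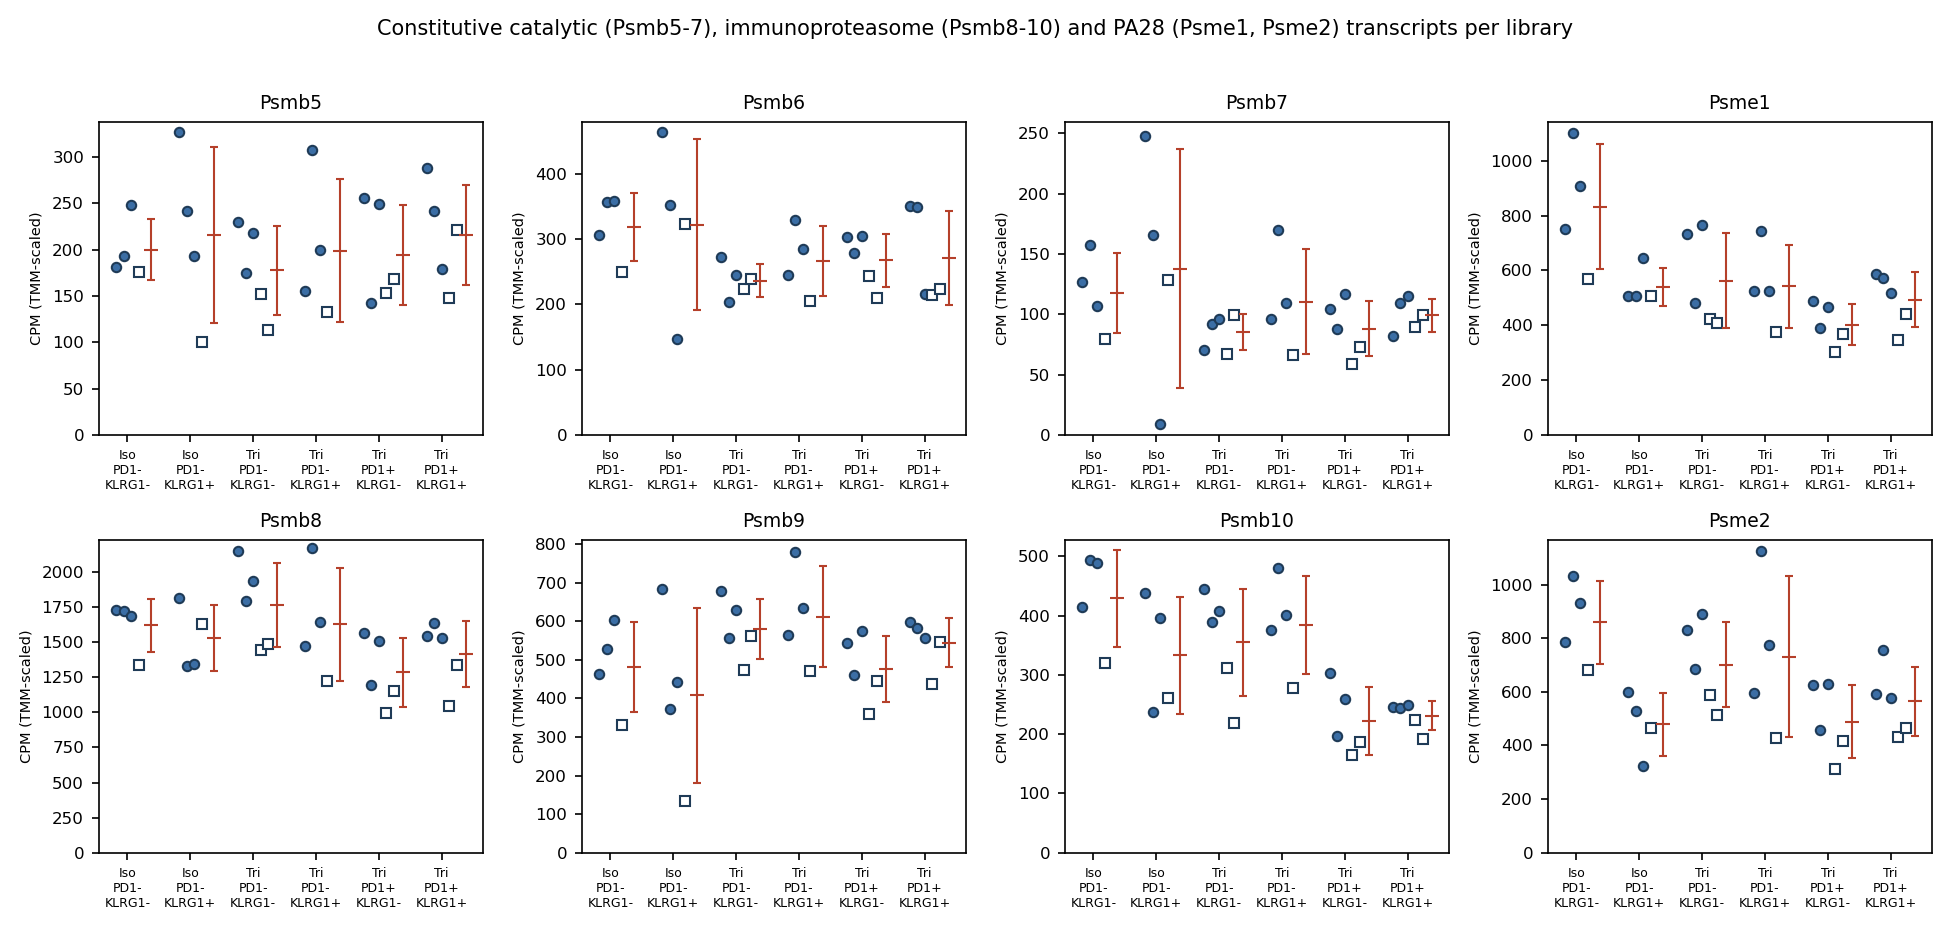
CPM (vertical axes) of the 3 constitutive catalytic genes, the 3 immunoproteasome catalytic genes and the PA28 genes Psme1 and Psme2 in every library, by group. Filled circles are libraries without and open squares with an RNA number in the description, and the red dash and bars are the group mean and SD. Psmb10 averaged 222 and 231 CPM in the PD1+ groups against 355 and 384 CPM in the Tri PD1- groups. Over all 6 groups the means of Psmb5 ran from 177 to 216 CPM, those of Psmb6 from 236 to 322 CPM and those of Psmb7 from 85.1 to 138 CPM.

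Psmb8, the inducible form of Psmb5, was high in every library. It stood at 2149.9, 1793, 1936, 1447 and 1485 CPM in Tri PD1-KLRG1- and at 1567, 1198, 1510.2, 996 and 1152 CPM in Tri PD1+KLRG1-. The groups overlapped, although 3 of the 5 PD1+ values lay below every PD1- value. Its lowest group mean was 1284 ± 244 CPM (SD, n = 5), in Tri PD1+KLRG1-, and its highest 1762 ± 299 CPM (n = 5), in Tri PD1-KLRG1-. Psmb9, the inducible form of Psmb6, ran from 408 ± 226 CPM (n = 4) in Iso PD1-KLRG1+ to 612 ± 130 CPM (n = 4) in Tri PD1-KLRG1+. In that Iso group its values were 683, 373, 442 and 133 CPM, the last in the library rich in myeloid and stromal markers.

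The constitutive genes lay at lower CPM. Outside Iso PD1-KLRG1+, the highest group mean over the lowest was 1.22 for Psmb5, 1.35 for Psmb6 and 1.38 for Psmb7. It was 1.37 for Psmb8 and 1.28 for Psmb9. Over all 6 groups, means of Psmb5 ran from 177 ± 48 to 216 ± 54.4 CPM (both n = 5). Those of Psmb6 ran from 236 ± 25.2 (n = 5) to 322 ± 131 CPM (n = 4), and those of Psmb7 from 85.1 ± 15.1 (n = 5) to 138 ± 99.1 CPM (n = 4). The wide SDs belong to Iso PD1-KLRG1+. There Psmb7 stood at 248, 166, 9.21 and 128 CPM, and the value 9.21 is 1 count, with an exact Poisson interval of 0.0253 to 5.57 counts that covers counting error only.

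Levels of the PA28 genes were highest in Iso PD1-KLRG1- cells. Psme1 read 751, 1102, 908 and 568 CPM there, 732, 480.4, 765, 422 and 408 CPM in Tri PD1-KLRG1- and 486, 388, 468, 300.4 and 368 CPM in Tri PD1+KLRG1-. Psme2 read 787, 1034, 931 and 683 CPM in Iso PD1-KLRG1-, 829, 685, 890.1, 588 and 514 CPM in Tri PD1-KLRG1- and 626, 459, 628, 313 and 418 CPM in Tri PD1+KLRG1-. Each pair of neighbours in this order overlapped, for both genes. Means in the KLRG1+ groups were 541, 541 and 493 CPM for Psme1 and 479, 731 and 564 CPM for Psme2 (Iso PD1-, Tri PD1- and Tri PD1+).

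The spread over groups differed between members. Leaving aside Iso PD1-KLRG1+, the ratio of the highest to the lowest group mean was 2.76 for Psmg1 and 2.58 for Psmg4, both core-assembly chaperones expressed at under 50 CPM on average. It was 2.07 for Psme1 and 1.94 for Psmb10. It came to 1.13 for Psma1, an alpha-ring subunit, and 1.14 for Psme3, the nuclear PA28 gamma activator. With Iso PD1-KLRG1+ included it was 5.35 for Psme4, the PA200 activator, whose mean was 12.0 CPM in that group.

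PD1+ cells were compared with PD1- cells to ask how the subunits differ with the exhaustion-associated receptor. Under Tri, in KLRG1- cells, 1 of 48 members was called (adjusted p under 0.05): Psmb10 was lower in PD1+ cells by 0.67 ± 0.17 on the log2 scale (fold 0.629, SE in log2 units, adjusted p = 0.0392). Of all genes, 1.56% were called in either direction and 0.939% as lower. The Psmb10 groups overlapped, since PD1- replicate 5, at 219.8 CPM, lay below PD1+ replicates 1 and 3, at 303 and 259 CPM. By name series the values were 389.8 to 445 against 196 to 303 CPM in the plain names, and 312 and 219.8 against 164 and 186 CPM in the suffix names. The call was lost in 8 of 10 fits that left out a library of either group, with adjusted p from 0.0284 to 0.143; it held without PD1+ replicate 1 and without PD1- replicate 5. It was also lost with RLE scaling (adjusted p = 0.0575), no count filter (0.293), no name-series term (0.173), only libraries without the suffix (0.373) and the replicate number as a block (0.0730), and it held with DESeq2 (0.00170) and limma-voom (0.00651).

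At an unadjusted p under 0.05, 6 of 48 members were lower and 0 higher in PD1+KLRG1- cells, where 4.23% of all genes were lower and 9.52% differed in either direction. Besides Psmb10 they included Psmb8 (-0.46 ± 0.13, adjusted p = 0.0875), Psme2 (-0.53 ± 0.18, adjusted p = 0.195) and Psme1 (-0.46 ± 0.16, adjusted p = 0.196). The remaining ones were Psme2b (-0.93, adjusted p = 0.204) and Psmd4, the 19S ubiquitin receptor (-0.38, adjusted p = 0.325). Values of these last 2 did not overlap between the groups, as 3.41% of all genes were lower without overlap. All 3 constitutive catalytic genes had positive estimates, from 0.01 for Psmb7 to 0.16 for Psmb6, and none was called. Psmb9, at -0.29 ± 0.21, was not called either, with a 95% interval of -0.71 to 0.12. The median over the 48 members was -0.10, against 0.06 over all genes tested.

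In KLRG1+ cells 0 of 48 members were called between PD1+ and PD1- by edgeR, where 1.20% of all genes were. Unadjusted, 2 members had p under 0.05, both lower, against 11.2% of all genes in either direction. Psmb10 came nearest, at -0.64 ± 0.18 (fold 0.643, adjusted p = 0.0837). Its 5 PD1+ values, up to 249.9 CPM, lay below its 4 PD1- values, from 279 CPM; 2.81% of all genes were lower without overlap. DESeq2 called Psmb10 alone here, and so did limma-voom with a random block. The median of the members was -0.01, as was that of all genes. These PD1 comparisons in KLRG1- and KLRG1+ cells share no library. The test of their difference called 0 of 48 members and 0% of all genes, with 0 members at an unadjusted p under 0.05, against 4.54% of all genes; for Psmb10 the difference was 0.03 ± 0.25.

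**Figure D2:**
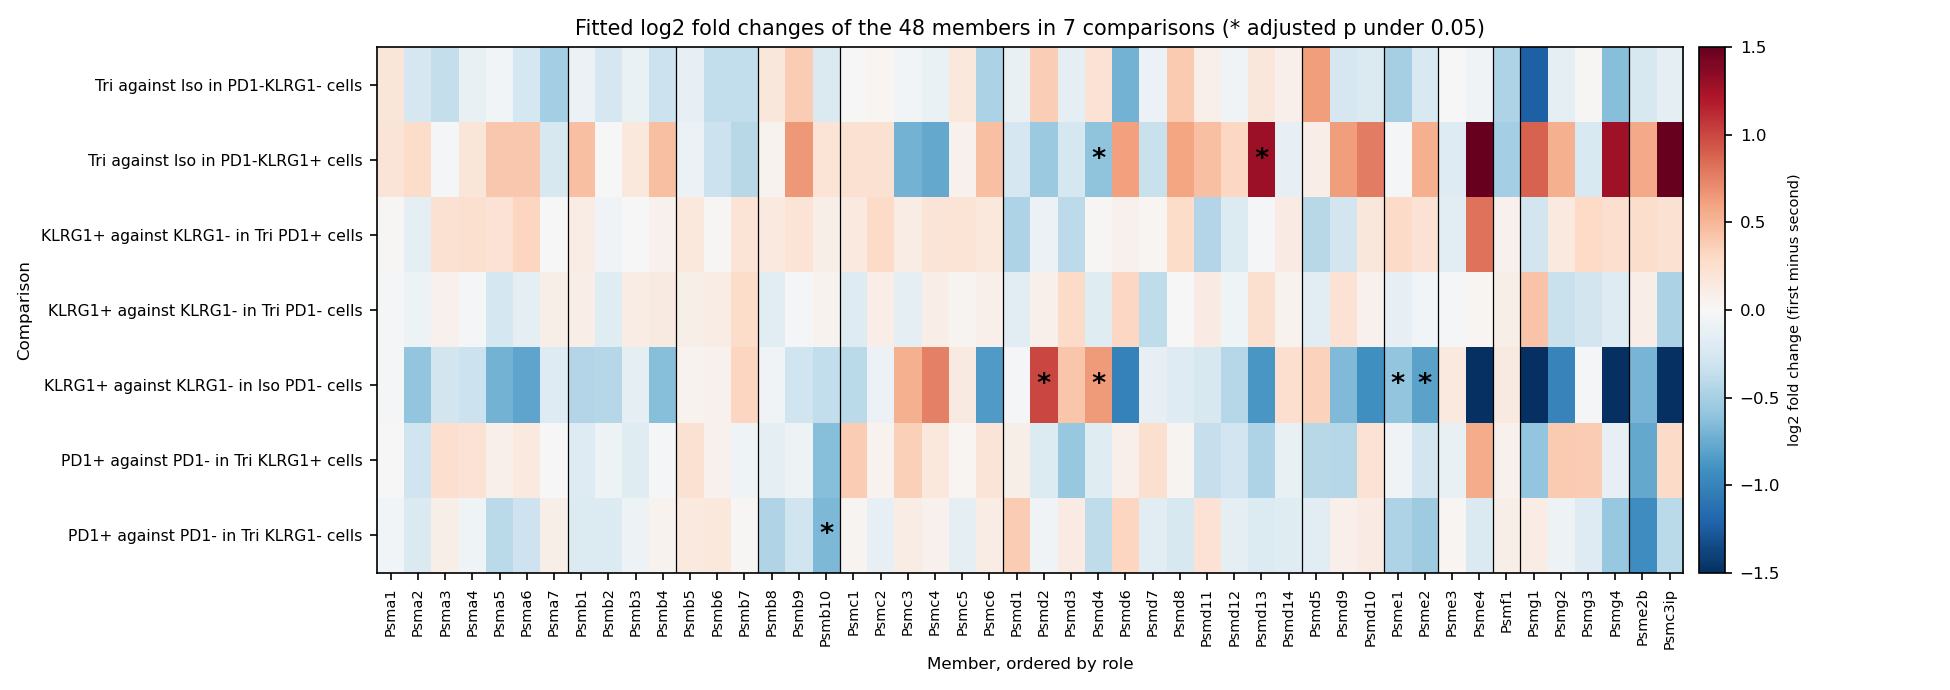
Log2 fold changes (colour, saturating at 1.5 in either direction) of the 48 members, ordered by role along the horizontal axis with lines between roles, in each comparison (rows of the map). Stars mark adjusted p under 0.05. They number 7: Psmb10 in PD1+ against PD1- KLRG1- cells, Psmd13 and Psmd4 in Tri against Iso PD1-KLRG1+ cells, and Psmd2, Psmd4, Psme1 and Psme2 in KLRG1+ against KLRG1- Iso cells.

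The balance of inducible over constitutive catalytic genes was measured within each library, where library scaling cancels, as the mean log2 count ratio of Psmb8 to Psmb5, Psmb9 to Psmb6 and Psmb10 to Psmb7. This score was made from members chosen with results known, so it is described without a test. It read 2.40, 2.30, 2.20, 2.18 and 2.03 in Tri PD1-KLRG1- and 1.67, 1.65, 1.56, 1.58 and 1.74 in Tri PD1+KLRG1-. The 2 groups did not overlap, and their means differed by -0.58 (2.22 ± 0.14 against 1.64 ± 0.07, SD, n = 5 each). In the plain names the ratio ran from 2.20 to 2.40 against 1.56 to 1.67, and in the suffix names it read 2.18 and 2.03 against 1.58 and 1.74.

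Among KLRG1+ cells the ratio read 2.13, 1.85, 2.03 and 2.16 in Tri PD1- and 1.59, 1.55, 1.86, 1.73 and 1.61 in Tri PD1+. One PD1+ library, replicate 3 at 1.86, reached the lowest PD1- value, and the means differed by -0.38 (2.04 ± 0.14, n = 4, against 1.67 ± 0.12, n = 5). By pair, all 5 ratios overlapped in KLRG1+ cells: the differences were -0.34 for Psmb8 over Psmb5, -0.16 for Psmb9 over Psmb6, -0.63 for Psmb10 over Psmb7, and -0.15 and -0.34 for Psme1 and Psme2 over the constitutive mean. In KLRG1- cells, PD1+ minus PD1- was -0.59 for Psmb8 over Psmb5, which did not overlap. It was -0.46 for Psmb9 over Psmb6 and -0.70 for Psmb10 over Psmb7, both of which did. Psme1 and Psme2 over the constitutive mean differed by -0.56 and -0.65, without overlap.

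**Figure D3:**
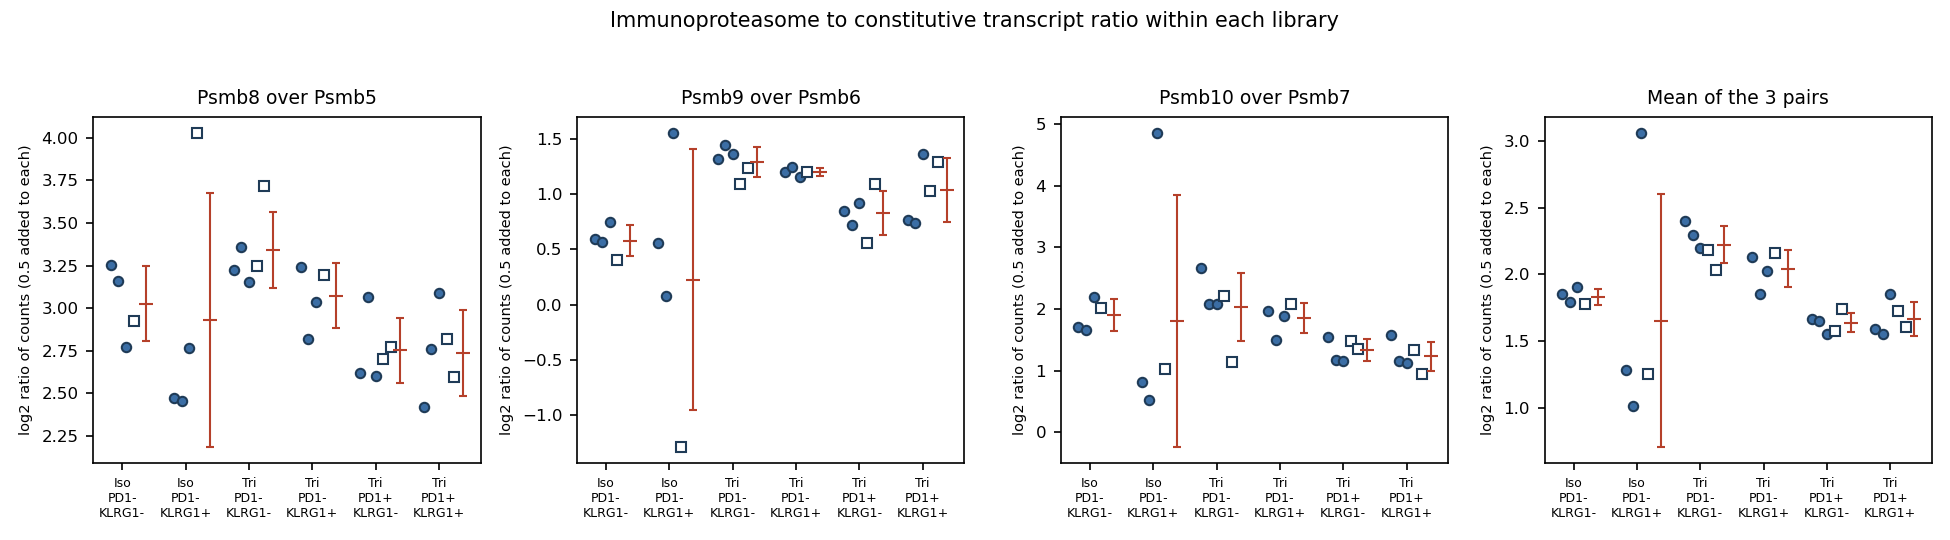
Log2 count ratio of each inducible gene to its constitutive counterpart, and their mean, in every library (vertical axis, log2 units) by group. Symbols are as in the plot of CPM by library. The mean ratio lies between 2.03 and 2.40 in Tri PD1-KLRG1-, between 1.56 and 1.74 in Tri PD1+KLRG1- and at 3.06 in Iso PD1-KLRG1+ replicate 3, the library of 93198 counts.

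Expressed per transcript length, Psmb8 made up 78.8 ± 2.11% of Psmb8 plus Psmb5 in Tri PD1+KLRG1-, against 84.8 ± 1.89% in Tri PD1-KLRG1- (SD, n = 5 each). The Psmb9 share was 51.2 ± 3.46% against 59.1 ± 2.29%, and the Psmb10 share 69.1 ± 2.61% against 77.9 ± 6.97%. The inducible transcript was thus the larger of its pair in both groups for each mean. Its share was lower in the PD1+ group for all 3 pairs, without overlap for Psmb8 alone. These are shares of transcript, and protein was not measured.

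The genes of the interferon gamma axis and of class I presentation, 18 in a list chosen with earlier results known, were read beside these values. In PD1+ against PD1- KLRG1- cells the list's median was -0.41. Irf1, an interferon-induced transcription factor that acts on Psmb9, fell from 586 ± 118 to 252 ± 51.9 CPM (log2 -1.24, adjusted p = 0.000402). The receptor chain gene Ifngr1 fell from 1472 ± 197 to 866 ± 79.5 CPM (-0.77, adjusted p = 0.0152), and Irf8, another factor of that family, rose by 2.41 (adjusted p = 2.53e-05). In KLRG1+ cells Irf1 fell by 0.94 (adjusted p = 0.0153), Irf8 rose by 2.37 (adjusted p = 0.000558), and the list's median was -0.36. The part of these genes in the proteasome values was not tested. Of 14 assembly and associated factors found among 15 listed, 0 were called in either PD1 comparison, with 0 at an unadjusted p under 0.05.

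Lists of markers of other cells were read in these groups as well. The summed level of 7 NK and innate-like markers averaged 2812 CPM in Tri PD1+KLRG1- against 1389 CPM in Tri PD1-KLRG1-. Most of that sum was Il2rb, at 2697 against 1145 CPM. Cd7 (22.8 against 87.7 CPM), Klrb1c (2.64 against 8.42 CPM) and Eomes (82.8 against 143 CPM) were lower in the PD1+ group. Of the 5 that were tested, 1 was called higher and 1 lower. Their estimates were negative for 3 and positive for 2, with a median of -0.75. The summed level of the 15 myeloid markers averaged 772 against 475 CPM, with 0 of 15 called. Their estimates were negative for 6 and positive for 9, with a median of 0.07. Cd74 (259.9 against 94.1 CPM) and Cst3 (300.4 against 144 CPM) were higher in the PD1+ group. Apoe (44.5 against 75.2 CPM) and C1qb (12.5 against 20.6 CPM) were lower. The part of these lists in the proteasome values was not tested.

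Tri was compared with Iso to ask what the treatment does within a gate. In PD1-KLRG1- cells 0 of 48 members were called by edgeR, where 0.804% of all genes were. At an unadjusted p under 0.05 there were 2 members, both lower under Tri, against 8% of all genes: Psme1 (-0.50 ± 0.17, adjusted p = 0.242) and Psma7, an alpha subunit. DESeq2 called Psme1 alone, as lower, with an adjusted p of 0.0399. The median of the members was -0.11 and that of all genes -0.09. The myeloid list averaged 2041 CPM in Iso (1280.3 CPM without replicate 4, at 4324 CPM) and 475 CPM in Tri, with 2 of 15 lower under Tri, and its part in the Psme1 value was not tested.

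Within a library, the mean of the 3 catalytic pairs stood higher under Tri. The mean pair ratio read 1.85, 1.79, 1.91 and 1.78 in Iso PD1-KLRG1- and lay above all of these in each of the 5 Tri libraries, from 2.03 to 2.40. The means differed by 0.39. Most of this came from Psmb9 over Psmb6, which was 0.58 ± 0.14 (n = 4) in Iso and 1.29 ± 0.14 (n = 5) in Tri, without overlap. Per length, the Psmb9 share of that pair was 46.8 ± 2.43% in Iso and 59.1 ± 2.29% in Tri. The other 2 pairs overlapped, with differences of 0.31 for Psmb8 over Psmb5 and 0.14 for Psmb10 over Psmb7. The PA28 genes over the constitutive mean overlapped too, with differences of -0.22 for Psme1, lower under Tri, and 0.05 for Psme2. As single genes Psmb9 (0.38 ± 0.23, adjusted p = 0.854) and Psmb6 (-0.37 ± 0.22, adjusted p = 0.850) were not called. The median of the interferon list was 0.35.

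In PD1-KLRG1+ cells 2 of 48 members were called between Tri and Iso, 1 in each direction, against 6.08% of all genes (5.46% higher, 0.619% lower). Psmd13, a 19S lid subunit, read 179, 190.0, 179 and 143 CPM under Tri and 103, 80.8, 18.4 and 61.5 CPM under Iso. It rose by 1.29 ± 0.31 (fold 2.44, adjusted p = 0.0125), and the groups did not overlap. Of all genes, 8.72% were higher under Tri without overlap. Psmd4 read 235, 242, 203 and 233 CPM under Tri and 327, 348, 341 and 369 CPM under Iso. Psmd4 fell by 0.60 ± 0.18 (fold 0.659, adjusted p = 0.0402), without overlap, where 0.541% of all genes were lower without overlap. The Psmd4 call was lost without any 1 of the 4 Tri libraries or Iso replicate 4 (adjusted p up to 0.114), and both calls were lost once the fit took in how many genes each library detected. Without the 3 libraries set apart in an earlier analysis of these data (Tri PD1-KLRG1- replicate 5 and replicates 3 and 4 of Iso PD1-KLRG1+) Psmd4 was not called and 3 members, Psmd13 among them, were higher under Tri. That choice follows no single measure: Iso PD1-KLRG1+ replicates 1 and 2 lacked a count for 10.7 and 9.94% of well-expressed genes, against 3.43% in Tri PD1-KLRG1- replicate 5. Leaving out 1 library gave 1 to 6 calls: 6 without Iso replicate 2 and 1, Psmd13, without any 1 of the 4 Tri libraries.

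Unadjusted, 8 members in this comparison had p under 0.05, 4 in each direction, against 22.2% of all genes. They included Psmb9 (0.66 ± 0.24, adjusted p = 0.102; without Iso replicate 1 it was called, at 1.02 and adjusted p = 0.00339) and Psme2 (0.54 ± 0.21, adjusted p = 0.119). The median was 0.20 over the members and 0.34 over all genes. The mean pair ratio was 2.04 ± 0.14 under Tri and 1.66 ± 0.94 under Iso (n = 4 each), overlapping because of Iso replicate 3. Without that library the Iso values ran from 1.02 to 1.28, below all 4 Tri values (1.85 to 2.16), and the difference was 0.86. In Iso replicate 4, rich in myeloid and stromal markers, the pairs went opposite ways. Psmb8 over Psmb5 read 4.03 there, against 2.82 to 3.24 under Tri. Psmb9 over Psmb6 read -1.29, against 1.16 to 1.24.

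KLRG1+ cells were compared with KLRG1- cells in each setting. Under Tri, edgeR called 0 of 48 members in PD1+ cells, where it called 0.0569% of all genes, and 0 in PD1- cells, where it called 0% of all genes. No member had an unadjusted p under 0.05 in either, against 6.61% and 4.80% of all genes. DESeq2 and limma-voom called 0 members as well. For the 8 central genes the estimates ran from 0.01 to 0.29 in PD1+ cells and from -0.17 to 0.27 in PD1- cells. The 95% interval was narrowest for Psmb8 (-0.12 to 0.40 in PD1+ cells and -0.45 to 0.11 in PD1- cells) and widest for Psmb7 (-0.52 to 0.92 and -0.50 to 1.05). The member medians were 0.12 and 0.03, against -0.07 and -0.01 over all genes. All 15 proliferation markers had positive estimates in both comparisons, with 0 of 15 called.

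The mean pair ratio differed by 0.03 between KLRG1+ and KLRG1- cells in Tri PD1+ and by -0.18 in Tri PD1-, with overlap in both. As a ratio of summed CPM, the Tri PD1- groups did not overlap (2.21 ± 0.09, n = 4, against 2.43 ± 0.10, n = 5).

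Under Iso, 4 of 48 members were called between KLRG1+ and KLRG1- PD1- cells, where 8.66% of all genes were called (1.24% higher and 7.43% lower). Both PA28 genes fell. Psme2 read 599, 529, 322 and 464 CPM in KLRG1+ cells against 787, 1034, 931 and 683 CPM, without overlap, and fell by 0.80 ± 0.21 (fold 0.574, adjusted p = 0.0143). Of all genes, 16.2% were lower without overlap in this comparison. Psme1 read 505, 506, 645 and 508 CPM against 751, 1102, 908 and 568 CPM and fell by 0.59 ± 0.18 (fold 0.665, adjusted p = 0.0410), with overlap. With the counts of Psme2 and Psme2b added together, an alternative chosen after seeing the data, Psme2 fell by 0.79 (adjusted p = 0.00874). The Psme1 call was lost without KLRG1- replicate 2 or 3 or KLRG1+ replicate 1 or 2, with adjusted p up to 0.0966. B2m, the light chain of class I, fell by 0.86 in the same comparison (adjusted p = 0.0134), and the 18 genes of that list had a median of 0.24.

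The 2 members that rose in Iso KLRG1+ cells were Psmd2 and Psmd4, of 17 subunits of the 19S cap. Of the 11 cap subunits that are not ATPases 7 had negative estimates, with a median of -0.13. Psmd2, a scaffold of the base, read 368, 394, 378 and 688 CPM against 258, 152, 164 and 344 CPM and rose by 1.00 ± 0.27 (fold 2.0, adjusted p = 0.0212). Psmd4 read 327, 348, 341 and 369 CPM against 257, 198, 218 and 217 CPM and rose by 0.64 ± 0.18 (fold 1.56, adjusted p = 0.0217). Neither gene's groups overlapped, and 1.03% of all genes were higher without overlap. Leaving out KLRG1- replicate 2 or 3, or KLRG1+ replicate 4, ended the Psmd2 call (adjusted p up to 0.0975), and leaving out KLRG1- replicate 2, 3 or 4 ended the Psmd4 call (up to 0.0976). Of the 48 members 11 had an unadjusted p under 0.05, 3 higher and 8 lower, against 26.6% of all genes, and the median was -0.29 against -0.52 over all genes. The number of calls was 1, Psme2, without KLRG1- replicate 2 or 3, and it was 9 without KLRG1+ replicate 1 and 11 without KLRG1+ replicate 4. Shares of all genes called in these fits are not given here.

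The balance of inducible over constitutive genes varied widely between the Iso KLRG1+ libraries. The mean pair ratio ran from 1.78 to 1.91 in Iso KLRG1- cells and was 1.66 ± 0.94 (n = 4) in KLRG1+ cells, a difference of -0.18. It was -0.65 without KLRG1+ replicate 3, at 3.06, since the other KLRG1+ values, 1.02 to 1.28, lay below all 4 KLRG1- values. The pairs differed: Psmb10 over Psmb7 read 0.82, 0.52, 4.86 and 1.03 against 1.65 to 2.20, so that the libraries other than replicate 3 lay below. Psmb8 over Psmb5 read 2.47, 2.46, 2.77 and 4.03 against 2.77 to 3.25, with replicate 4 above every KLRG1- value. Psmb9 over Psmb6 read 0.56, 0.08, 1.56 and -1.29 against 0.40 to 0.75, with replicate 1 inside that range.

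All 4 Iso calls involve the group in which few genes were detected. They ended when the number of genes detected was a covariate, and without the 3 libraries set apart 8 members were called, all lower. The share of all genes called in that fit is not given here. In the main fit 7.43% of all genes were called as lower. Ddi2, a protease that activates the transcription factor of proteasome genes, was at 0.0410 CPM in Iso PD1-KLRG1+ against 48.7 CPM in Iso PD1-KLRG1-. Sem1, a small 19S subunit, fell by 0.86 (adjusted p = 0.0480) and Socs1, an inhibitor of interferon signalling, by 0.94 (adjusted p = 0.0498). The part of library quality in these values was not tested.

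Whether the KLRG1 difference depended on treatment was tested as an interaction in PD1- cells. EdgeR called 0 of 48 members, where it called 3.59% of all genes, and 5 members had an unadjusted p under 0.05, against 18.3% of all genes. Psmd4 (-0.82, adjusted p = 0.0570) and Psme2 (0.76 ± 0.28, adjusted p = 0.133) came nearest among the genes named above. DESeq2 called 2 members. A single member was called without Tri PD1-KLRG1- replicate 5 or any 1 of the 4 Iso PD1-KLRG1+ libraries, and 0 in the other 12 fits that left out a library.

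The name series was also read as a contrast. Libraries whose description carries an RNA number were lower than the others within groups for 6 of 48 members and higher for 0, where 0.854% of all genes were lower and 0.128% higher; this contrast was chosen after its values were seen. The called genes were Psme1 (-0.51, adjusted p = 0.0222), Psmb3 (-0.48), Psmb10 (-0.49), Psme2 (-0.53), Psmb2 (-0.52) and Psmb4 (-0.66). All 17 genes of the 20S core had negative estimates, with a median of -0.43, and 14 were lower at an unadjusted p under 0.05, as 5.05% of all genes were. Of the 17 subunits of the 19S cap 10 were negative, with a median of -0.02. At that threshold Psmd8, Psmc3 and Psmc4 of the cap were lower and Psmd2 was higher, as 4.81% of all genes were. The difference between core and cap was not tested. The median over the 48 members was -0.28 and over all genes 0.05. DESeq2 called 16 members, 15 of them lower, and limma-voom 12, all lower. The shares of all genes above are those of edgeR, and those of these other methods are not given here. The edgeR count rested on single libraries. It was 0 without replicate 4 of Iso PD1-KLRG1- or of Tri PD1-KLRG1+, PD1+KLRG1- or PD1+KLRG1+, and 1 without Tri PD1-KLRG1- replicate 4. It was 2 or 3 without Iso PD1-KLRG1- replicate 2 or 3, Iso PD1-KLRG1+ replicate 1, Tri PD1-KLRG1- replicate 1, 3 or 5, Tri PD1-KLRG1+ replicate 2, or Tri PD1+KLRG1- replicate 1, 3 or 5.

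**Figure D4:**
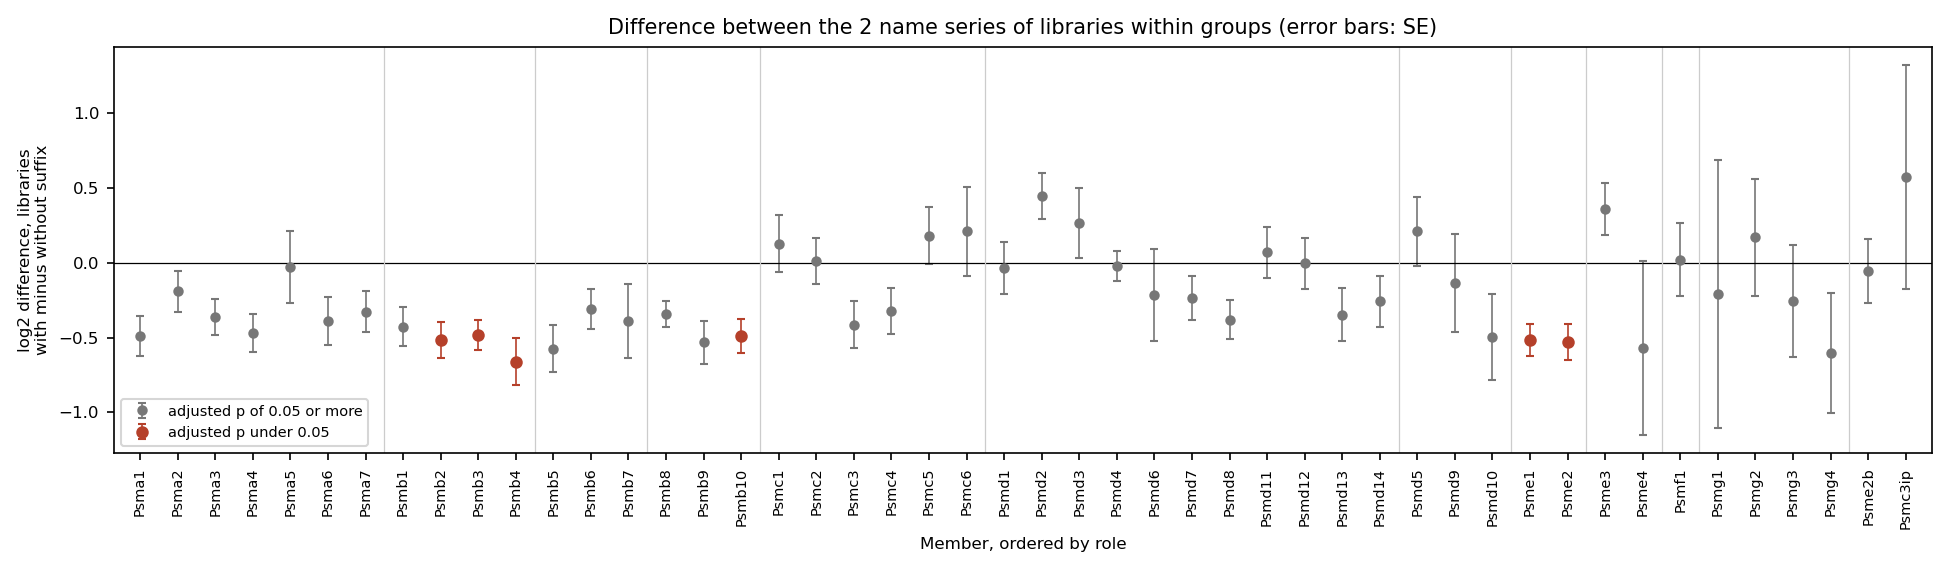
Difference between libraries with and without an RNA number in the description, within groups (log2, vertical axis), for each member by role. Red points have an adjusted p under 0.05 and grey points do not, bars are SE and vertical lines separate roles. All 17 core genes and both PA28 genes lie below 0, while the 19S subunits lie on both sides.

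Summed over the 17 core genes, the suffix libraries lay below every plain library of their group in 5 of 6 groups. In Tri PD1-KLRG1- the sums were 5303 and 5512 CPM against 6236 to 7833 CPM, and in Tri PD1+KLRG1- 4272 and 4809 CPM against 5284 to 6769 CPM. The exception was Iso PD1-KLRG1+, where the suffix library read 5282 CPM and the others 5031 to 7601 CPM. For the 19S subunits the suffix libraries lay below in 3 of 6 groups. The labels do not say what the number stands for.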

How the data were processed

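The deposited table held raw counts per gene for 27 libraries; its values were whole numbers and were not normalized. The aligner, counter, genome build and annotation were not given in the sources used here. DESeq2 1.26.0 is named, without a role, per the submitters' processing notes. Columns were matched to samples by name, and 505 of 47729 listed genes carried no symbol.

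Counts were scaled with TMM and filtered with filterByExpr (minimum count 10), which kept 14059 genes. They were fitted with edgeR 4.0.16 in R 4.3.3 (robust quasi-likelihood test, Benjamini-Hochberg over all genes tested, called under 0.05). The fit held 6 groups and the name series, and all libraries shared 1 estimate of spread. It was tested on simulated data. The 7 comparisons were each between groups that differ in 1 label, and 2 interactions tested differences between them. Comparisons with a group in common share its libraries. Pair ratios used counts with 0.5 added. Lengths are of GENCODE M21 principal transcripts, and promoters are from RefSeq GRCm38.p6.

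The members and lists were chosen with earlier results of these data known. The genes named were the 6 catalytic and 2 PA28 genes, with folds where the unadjusted p was under 0.05, plus up to 8 other called members per comparison; other members named are described as extremes or were chosen after their values were seen. Of other pathway genes up to 3 called were named per list, and 1 gene of the interferon list is not reported here. Alternatives were RLE scaling, no filter, DESeq2 1.42.0, limma-voom (limma 3.58.1) with a random block, other covariates and subsets of libraries, and leaving out each library. The name-series contrast and the sum of Psme2 and Psme2b were chosen after seeing the data. Totals of 93198 to 26284630 counts set the precision of each library. Figures were drawn with matplotlib 3.10.9.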

Additional observations from a re-analysis of the deposited data

Results flagged for a closer look

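A value was singled out where its gap to the nearest library of its group was large against the group's whole range, past the 95% limit of Dixon's test. Of 54 sets of values examined, from the 8 central genes and the mean pair ratio in 6 groups, 3 held such a library, and chance gives about 1 in 20. Psmb8 in Iso PD1-KLRG1- replicate 4 stood at 1338 CPM, below the 1689 to 1731 CPM of the other 3 libraries; this library is the 1 of its group with an RNA number in its description. Psme1 in Iso PD1-KLRG1+ replicate 3 stood at 645 CPM, above the 505 to 508 CPM of the others. The mean pair ratio of the same library was 3.06 against 1.02 to 1.28; it holds 93198 counts, of which 1 fell on Psmb7.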

How the results depend on the processing

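The number of members called depended on the settings where any were called. In Tri against Iso PD1-KLRG1+ cells (2 calls) it was 4 with RLE scaling, 6 with DESeq2, 1 in libraries without the name suffix, and 0 without a filter, with only the groups compared or with genes detected as a covariate. For KLRG1 in Iso cells (4 calls) it was 2 without a filter, 8 without the 3 libraries set apart earlier, and 0 with only the groups compared or with the covariate. For PD1 in Tri KLRG1- cells (1 call) it was 3 with DESeq2 and with limma-voom, 4 with only the groups compared, 2 without the Iso PD1-KLRG1+ libraries, and 0 with RLE scaling, no filter, no name-series term or only libraries without the suffix. For PD1 in Tri KLRG1+ cells (0 calls) DESeq2, limma-voom, the fit without the 3 libraries and the fit without the 4 Iso PD1-KLRG1+ libraries each gave 1, Psmb10. DESeq2 gave 1 in Tri against Iso PD1-KLRG1- cells. The KLRG1 by treatment interaction (0 calls) gave 1 with RLE scaling, without the suffix libraries or without the 3 libraries, and 2 with DESeq2. The name-series contrast (6 calls) gave 3 without a filter, 16 with DESeq2, and 12 with limma-voom and without the Iso PD1-KLRG1+ libraries. These causes were not tested. Shares of all genes called under each setting, or with 1 library left out, are not given here, so these counts cannot be set against them.

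Leaving out 1 library gave 1 to 6 calls in Tri against Iso PD1-KLRG1+ cells, 1 to 11 for KLRG1 in Iso cells, 0 to 1 for PD1 in KLRG1- cells and for the KLRG1 by treatment interaction, and 0 to 8 for the name series. The other counts stayed at 0. Differences in mean pair ratio ran from 0.35 to 0.44 for Tri against Iso PD1-KLRG1- cells, from -0.63 to -0.54 for PD1 in KLRG1- cells and from -0.44 to -0.34 for PD1 in KLRG1+ cells. They ran from 0.18 to 0.86 for Tri against Iso PD1-KLRG1+ cells, from -0.65 to 0.03 for KLRG1 in Iso cells, from -0.23 to -0.12 in Tri PD1- cells and from -0.02 to 0.06 in Tri PD1+ cells.

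The labels do not say whether libraries with the same replicate number share a mouse, and the main fit did not pair them. In no comparison did every same-numbered pair of deviations correlate above 0.1 (lowest -0.27, highest 0.46). For KLRG1 in Tri PD1+ cells the correlations ran from 0.04 to 0.44, and 4 of 5 were highest with their own number. For PD1 in Tri KLRG1- cells they ran from 0.04 to 0.44, with 3 of 5, and for KLRG1 in Tri PD1- cells from -0.22 to 0.46, with 1 of 4. These values cannot decide whether the numbers pair the libraries. With the replicate block the PD1 count in KLRG1- cells was 0 (Psmb10 adjusted p = 0.0730), and Psme1 in Iso cells was no longer called (edgeR adjusted p = 0.0520). No other call of a named member changed with the block. Depth limits Iso PD1-KLRG1+ replicate 3 most, at 93198 counts.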
